A study of Mus musculus with 6 samples.

Results

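Genes of fatty acid oxidation and ketone metabolism were compared between activated and quiescent neural stem cells. Both came from the ventricular-subventricular zone (V-SVZ) of adult mouse brains, the germinal layer along the lateral ventricles. The set held 37 named genes. A probe set annotated to a single gene was found for 36 of them, among 18193 genes in all, and the brightest such probe set stood for its gene. Acsl1 had none and was not analysed here. Ehhadh was too dim to be tested, which left 35 genes. Activated cells were sorted as positive for a GFP reporter under the GFAP promoter, for CD133 and for the EGF receptor, and negative for CD24. Quiescent cells were sorted by the same GFP, CD133 and CD24 criteria with no selection on the EGF receptor named. There were 3 arrays of activated and 3 of quiescent cells, called biological replicates, but the labels do not say whether animals were pooled or separate, and p-values then measure only the spread between these samples. Of the genes behind the sort, Egfr read 12.77, 12.84 and 13.05 in activated cells, against 10.64, 10.92 and 10.77 in quiescent cells. Transcripts of Cd24a, whose product was selected against in both groups, read 13.36, 13.52 and 13.29 in activated cells, against 7.99, 9.31 and 10.48 in quiescent cells, a bright signal in the arrays labelled CD24-negative and activated. Gfap read 6.21, 5.91 and 7.90 in activated cells, against 10.04, 11.32 and 11.20 in quiescent cells, and Prom1, which encodes CD133, was lower in activated cells by 1.22 ± 0.32 log2 units. The promoter-driven reporter limits both groups to cells in which the GFAP promoter is or was active. Values are log2 MAS5 signals, and a difference is the activated mean minus the quiescent mean on that scale, given ± SE with the Benjamini-Hochberg adjusted p of a limma fit over 11575 genes (n = 3 arrays per group). A gene was called when this adjusted p was under 0.05. Precision is limited by having 3 arrays a group.

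Fatty acids enter the cell, are joined to coenzyme A and cross into mitochondria as carnitine esters. There each turn of beta-oxidation uses an acyl-CoA dehydrogenase, a hydratase, a hydroxyacyl-CoA dehydrogenase and a thiolase to release acetyl-CoA, and electrons pass through the electron transfer flavoprotein to the respiratory chain. Peroxisomes shorten very long and branched chains. Ketone bodies made in the liver are taken up by the brain and converted back to acetyl-CoA. In the brain this oxidation is best known from astrocytes and neural stem cells, and the nuclear receptor PPAR alpha with its coactivator PGC-1alpha drives its genes in many tissues.

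Some genes of fatty acid uptake and activation, of acyl-CoA dehydrogenation and of thiolysis, and both regulators, were lower in activated cells. None of the 4 tested genes of the carnitine shuttle and malonyl-CoA, the 4 auxiliary enzymes, the 3 of electron transfer or the 3 of ketone use was called (limma). At an unadjusted p under 0.05, Cpt1a and Eci1 were lower, and 0 genes of electron transfer or ketone use passed. These results are of the brightest probe sets. Among further probe sets, 2 of Cpt1a and 1 of Decr1 were called lower, and 1 of Acat1 was called higher. The uptake protein gene Slc27a1, the acyl-CoA synthetase genes Acsl3 and Acsl6, the dehydrogenase genes Acadvl, Acadl and Acadm, the thiolase genes Acaa2 and Acaa1a, Hadh, the thioesterase gene Acot2 and the regulators Ppara and Ppargc1a fell. Acads, the short-chain dehydrogenase gene, rose. Of the 35 genes tested, 12 were called lower, where 17.6% of all tested genes were lower, and 1 was called higher, where 17.3% of all tested genes were higher. In both directions together 13 of 35 were called, close to the 34.9% of all tested genes. The median difference of the 35 genes was -0.76, against 0.01 over all tested genes, and 27 of the 35 differences were below 0, a count that dropped to 18 when the arrays were scaled to their hybridisation controls. The activated arrays lay wholly below the quiescent arrays for 16 of the 35 genes, where 25.5% of all tested genes did so, and wholly above for 3, where 25.1% did so (50.7% in either direction). The median signal of the set was 9.85, 10.28 and 10.13 on activated arrays 1, 2 and 3, against 11.07, 11.08 and 11.17 on quiescent arrays 1, 2 and 3. Fewer cells of a type and less RNA per cell cannot be told apart in such sorted bulk samples.

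**Figure D1:**
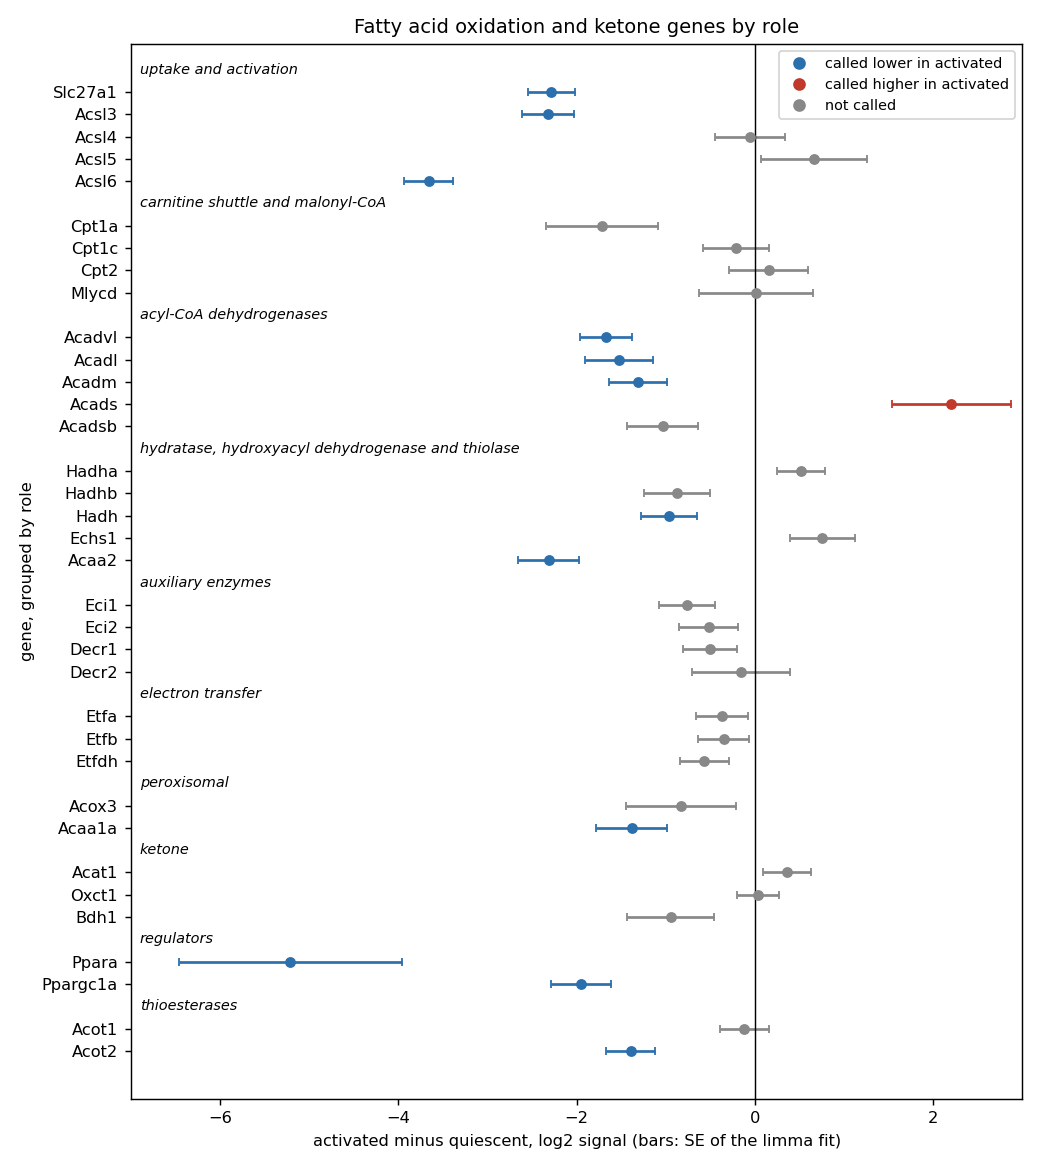
Difference between activated and quiescent cells for the 35 tested genes, grouped by role; the horizontal axis is activated minus quiescent in log2 signal, points are fitted differences and bars the SE (n = 3 arrays per group). The 12 genes called lower lie between -5.21 and -0.97, and Acads, the gene called higher, at 2.20.

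Other measures moved with the groups. The array background, taken from bacterial control probe sets, was 4.60 ± 0.07 on activated and 5.67 ± 0.37 on quiescent arrays (SD, n = 3 each), and the hybridisation controls were 13.69 ± 0.05 and 14.33 ± 0.53. The 3′ minus 5′ signal of Gapdh, a sign of RNA integrity and amplification, was 1.37 ± 0.17 on activated and 2.05 ± 0.52 on quiescent arrays, without overlap. Each of these 3 measures had a two-sided exact permutation p of 0.1, the smallest that 3 against 3 arrays can give, while that of actin was 0.07 ± 0.16 and -0.05 ± 0.16 (exact permutation p = 0.4, n = 3 each). Scaling the arrays to those controls shifted every gene alike, which put the median of all tested genes at 0.66 and that of the set at -0.12. It left 7 of the genes lower and 3 higher (943 lower and 3059 higher over all genes, against 2040 lower and 2004 higher with the deposited scaling). Astrocyte markers fell in 8 of 8 cases, and their summed linear signal ranged from 23270 to 28778 on activated arrays and from 117165 to 183466 on quiescent arrays. For S100b, an astrocyte calcium-binding protein, all 3 activated arrays were at background. Oligodendrocyte markers fell in 9 of 9 tested cases (summed signal 2378 to 6210 on activated and 21098 to 81093 on quiescent arrays), and none was at background on all arrays of a group. Of 7 matched endothelial markers 2 were bright enough to test and both fell (93.8 to 177 against 1070 to 3466), Pecam1, Kdr and Tie1 being at background on all activated arrays. Of 6 pericyte markers 3 were tested and all 3 fell (159 to 531 against 4493 to 8154), Kcnj8, Abcc9 and Anpep being at background on all activated arrays. Ependymal markers fell in 3 and rose in 1 of 5 tested cases (2090 to 2958 against 4149 to 6815). Of 6 microglia markers the 1 tested was not called (86.3 to 163 against 405 to 541), Aif1 and Tmem119 being at background on every array. That tested marker, Csf1r, differed by -1.28 without overlap. Cx3cr1 and P2ry12, too dim to test, differed by -3.10 and -2.80, also without overlap, and Itgam overlapped. Neuroblast markers rose in 3 of 6 cases (19817 to 25395 against 1827 to 8458) and proliferation markers in 4 of 4 (36078 to 42179 against 3808 to 10126). The part of these cell types, of RNA quality and of the scaling in the differences below was not tested.

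Promoters were examined because both regulators and several enzyme genes fell together. The RefSeq table of build GRCm38.p6 held 40 windows for 34 of the 37 genes, each with 250 bases before and 50 after an annotated start. The half-site AGGTCA, to which PPAR, RXR and ERR receptors bind, was searched on both strands. It occurred in 6 of the 40 windows (15%) and in 16.3% of the 32851 windows of all genes. Its 6 genes were Acadm, Acadvl and Acsl6, which fell, and Cpt1a, Cpt1c and Echs1, which were not called. The ERR response element TCAAGGTCA, which overlaps the half-site, occurred in 1 member window, that of Acsl6, and in 0.423% of all windows. The direct repeat of this half-site with 1 base between, the PPAR element DR1, occurred in 0 member windows and in 0.0396% of all windows. A sequence this rare would be absent from 40 windows of almost any set of genes, so its absence here carries no information. The core of the cAMP response element, TGACGT, occurred in the windows of Ppargc1a, Acsl4 and Ehhadh (7.5% of member windows and 7.51% of all). Below are the windows of the 3 fallen genes with a half-site and that of Ppargc1a, with matches on either strand in capitals. The Acsl6 window lies at chr11:54303574-54303873 on the plus strand, that of Acadm at chr3:153944594-153944893, that of Acadvl at chr11:70015379-70015678 and that of Ppargc1a at chr5:51567676-51567975, the last 3 on the minus strand.
Acsl6: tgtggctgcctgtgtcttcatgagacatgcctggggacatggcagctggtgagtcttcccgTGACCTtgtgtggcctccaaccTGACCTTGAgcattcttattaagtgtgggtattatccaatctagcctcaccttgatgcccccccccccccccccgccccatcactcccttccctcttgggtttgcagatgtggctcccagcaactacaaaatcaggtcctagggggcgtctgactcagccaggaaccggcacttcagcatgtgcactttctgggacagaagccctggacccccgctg
Acadm: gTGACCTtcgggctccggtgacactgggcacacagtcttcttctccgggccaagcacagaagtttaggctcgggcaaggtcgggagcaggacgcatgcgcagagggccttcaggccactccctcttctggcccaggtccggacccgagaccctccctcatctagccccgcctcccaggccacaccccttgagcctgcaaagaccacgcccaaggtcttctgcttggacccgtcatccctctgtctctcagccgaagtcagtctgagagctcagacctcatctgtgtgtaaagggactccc
Acadvl: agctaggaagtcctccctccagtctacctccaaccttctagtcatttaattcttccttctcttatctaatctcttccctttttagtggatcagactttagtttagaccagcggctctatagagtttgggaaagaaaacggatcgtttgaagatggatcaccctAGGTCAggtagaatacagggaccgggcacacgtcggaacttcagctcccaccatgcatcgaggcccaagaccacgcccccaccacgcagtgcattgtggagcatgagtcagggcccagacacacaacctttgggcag
Ppargc1a: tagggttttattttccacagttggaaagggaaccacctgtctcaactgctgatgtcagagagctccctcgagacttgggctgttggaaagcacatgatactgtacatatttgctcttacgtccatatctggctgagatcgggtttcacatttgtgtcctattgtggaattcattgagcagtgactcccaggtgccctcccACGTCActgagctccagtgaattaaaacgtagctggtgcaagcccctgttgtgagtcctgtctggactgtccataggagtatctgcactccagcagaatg
In the Acsl6 window the half-sites begin at bases -189 and -167 relative to the start, the second inside the ERR element. The match begins at -249 in Acadm, at -87 in Acadvl and, for the cAMP core, at -50 in Ppargc1a. A match of letters describes the window and does not show that a factor binds there.

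Of the 5 genes of uptake and activation tested, 3 fell and none rose. Acsl6, a long-chain acyl-CoA synthetase abundant in brain, read 9.83, 10.10 and 9.91 on activated arrays 1, 2 and 3, against 14.02, 13.58 and 13.21 on quiescent arrays 1, 2 and 3. All activated arrays lay far below every quiescent array. The difference was -3.66 ± 0.28, or 12.6-fold lower (adjusted p = 3.25e-05), and a further probe set, read by other probes of the same gene, differed by -3.30 ± 0.41 (adjusted p = 0.000261 over all probe sets). Acsl3, a synthetase of the endoplasmic reticulum and lipid droplets, read 11.17, 12.13 and 11.48 in activated cells, against 14.20, 13.78 and 13.75 in quiescent cells. It was 4.99-fold lower without overlap of the arrays, and its 2 further probe sets differed by -2.20 and -2.82. Slc27a1, which encodes the fatty acid transport protein FATP1, read 10.96, 11.08 and 11.10 in activated cells, against 13.79, 13.13 and 13.08 in quiescent cells. The activated arrays were close to each other, and the groups did not overlap. Its difference was -2.29 ± 0.26 (adjusted p = 0.00017), and a further probe set gave -2.69 ± 0.26 (adjusted p = 7.17e-05 over all probe sets).

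The synthetases differed among themselves. Acsl4, which prefers arachidonate, read 8.99, 8.32 and 8.50 in activated cells, against 8.81, 8.57 and 8.59 in quiescent cells, and the groups overlapped (-0.05 ± 0.39, adjusted p = 0.926). Acsl5, a mitochondrial isoform, differed by 0.66 ± 0.59 (adjusted p = 0.409), with signals of 7.48 to 8.86 in activated and 6.59 to 8.38 in quiescent cells. Whether the falls of Acsl3 and Acsl6 differ from the values of Acsl4 and Acsl5 was not tested.

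Among the carnitine shuttle genes the probe sets of Cpt1a gave different calls. Cpt1a encodes the carnitine palmitoyltransferase of the outer mitochondrial membrane, the main control point of fatty acid entry. Its brightest probe set read 7.99, 11.11 and 9.58 on activated arrays, against 11.31, 10.90 and 11.62 on quiescent arrays. Activated array 2 lay among the quiescent arrays, and the difference of -1.72 ± 0.63 missed the threshold (adjusted p = 0.056). Single arrays moved it both ways: without activated array 1 it was -0.93 (adjusted p = 0.170), and without activated array 2 it was -2.49 and called (adjusted p = 0.00607). It was -1.07 after scaling to the controls (adjusted p = 0.229) and, with all its probe sets averaged, was called at -1.88 (adjusted p = 0.00303). Cpt1a was called lower in 6 of 18 alternative settings. These included a pseudocount of 16 (adjusted p = 0.0466) or 64 (0.0408) on the linear signal, values raised to background (0.0417) and a block for replicate number (0.0405). The second probe set read 9.02, 9.22 and 9.43 in activated cells, against 10.60, 11.37 and 11.70 in quiescent cells. It did not overlap and fell by 2.00 ± 0.35 (adjusted p = 0.00171 over all probe sets), and the third fell by 1.93 ± 0.37 (adjusted p = 0.0031). Both bear the suffix for probes that may cross-hybridise. Cpt2, the inner membrane partner, differed by 0.16 ± 0.44 with signals of 8.59 to 9.48 in activated and 8.27 to 9.55 in quiescent cells. Cpt1c, a neuronal isoform with little oxidative role, differed by -0.21 ± 0.37, and Mlycd, whose enzyme removes the Cpt1 inhibitor malonyl-CoA, by 0.01 ± 0.64. The groups overlapped for all 3.

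The acyl-CoA dehydrogenases, which start each turn of beta-oxidation and are named by chain length, fell in 3 and rose in 1 of 5 cases. Acadvl, for very long chains, read 10.59, 10.83 and 10.37 in activated cells, against 12.64, 12.33 and 11.82 in quiescent cells. The groups did not overlap, and Acadvl was 3.19-fold lower (-1.67 ± 0.29, adjusted p = 0.0016). Acadl, for long chains, read 8.11, 8.69 and 8.94 in activated cells, against 9.86, 9.91 and 10.55 in quiescent cells (-1.53 ± 0.38, adjusted p = 0.0106). Acadm, for medium chains, read 9.62, 9.50 and 9.14 in activated cells, against 10.54, 11.17 and 10.48 in quiescent cells (-1.31 ± 0.32, adjusted p = 0.0105). Both were without overlap, and both lost the call when the hybridisation controls set the scale (adjusted p = 0.209 for Acadl and 0.291 for Acadm). Acadl also lost it when its probe sets were averaged (adjusted p = 0.0787).

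Acads, for short chains, went the other way. It read 7.89, 8.68 and 8.18 in activated cells, against 4.63, 6.84 and 6.67 in quiescent cells. The signal was dim, and quiescent array 1 lay below its background of 6.10, so that only a bound can be given, at least 3.28-fold higher in activated cells (2.20 ± 0.67, adjusted p = 0.027). Without quiescent array 1 the difference was 1.50 and still called (adjusted p = 0.0476). The call was lost without any one activated array (adjusted p = 0.0572 without array 1, 0.104 without array 2 and 0.0757 without array 3). Acadsb, for short branched chains, read 8.80, 10.23 and 9.15 in activated cells, against 10.55, 10.28 and 10.45 in quiescent cells. Its arrays did not overlap, although activated array 2 came close to the lowest quiescent array, and the gene was not called (-1.04 ± 0.40, adjusted p = 0.0651) except without activated array 2 (-1.46, adjusted p = 0.0198) and in the fit on means of probe sets (-1.04, adjusted p = 0.0489). The only Acadsb probe set bears the suffix for probes that may cross-hybridise, so the fit without such probe sets had no value for it.

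**Figure D2:**
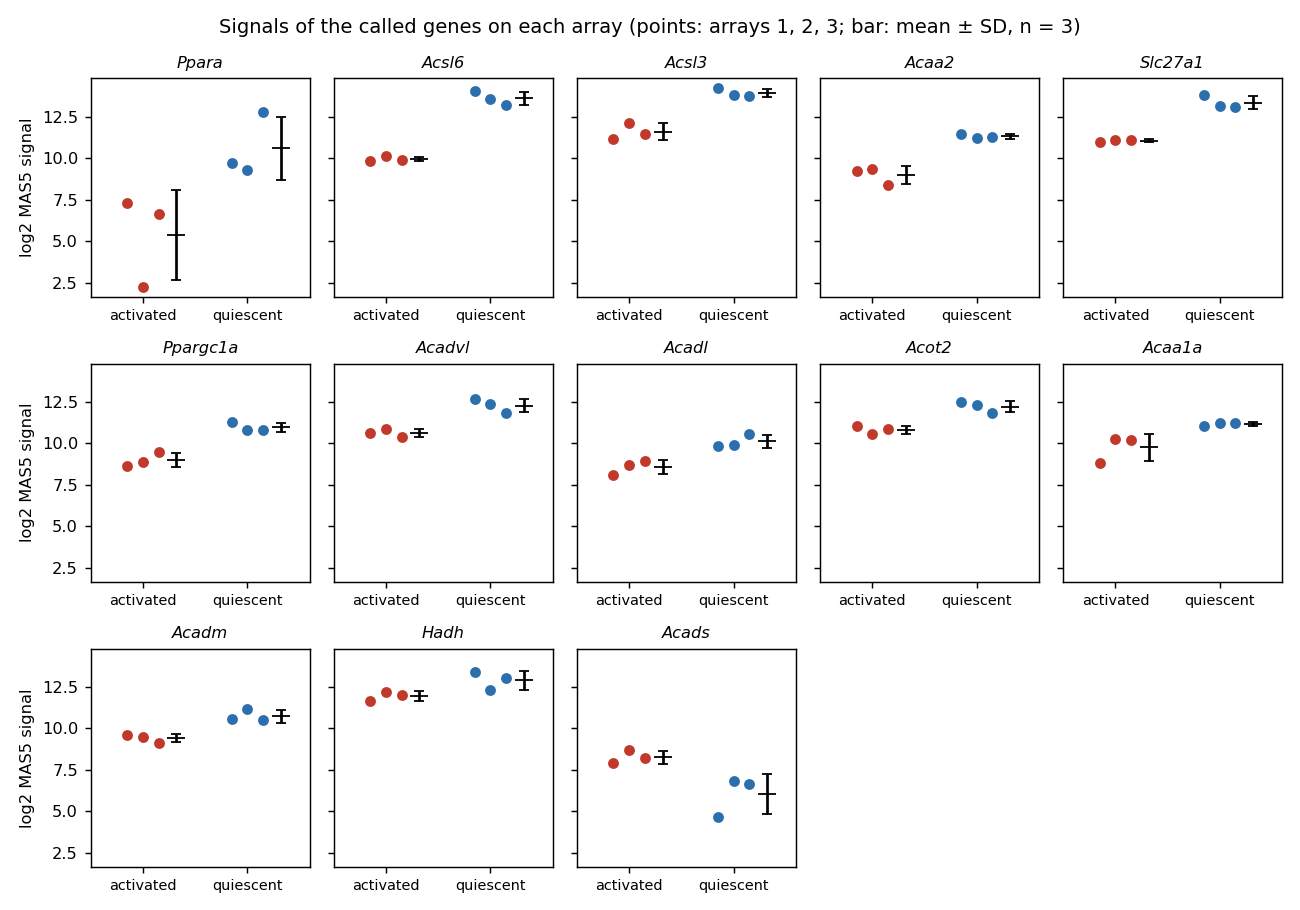
Log2 MAS5 signal of the 13 called genes on each array, activated arrays left of quiescent arrays; points are arrays 1, 2 and 3 from left to right and bars the mean ± SD (n = 3). The groups do not overlap in any panel, Acads alone is higher in activated cells, and Ppara shows the widest spread, from 2.26 to 7.27 on activated and 9.30 to 12.75 on quiescent arrays.

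The later steps of the mitochondrial spiral were mixed, with 2 of 5 genes called, both lower. Acaa2, the mitochondrial ketoacyl-CoA thiolase that ends each turn, read 9.24, 9.36 and 8.38 in activated cells, against 11.48, 11.18 and 11.26 in quiescent cells. The quiescent arrays were close to each other and the activated arrays well below them. It was 4.97-fold lower (-2.31 ± 0.34, adjusted p = 0.00062), and its 2 further probe sets differed by -2.66 and -3.05. Hadh, the hydroxyacyl-CoA dehydrogenase of medium and short chains, read 11.62, 12.21 and 11.99 in activated cells, against 13.40, 12.28 and 13.04 in quiescent cells. Quiescent array 2 lay just above the highest activated array. The difference of -0.97 ± 0.32 (adjusted p = 0.0363) was no longer called without quiescent array 1 (adjusted p = 0.106), without quiescent array 3 (0.0522), without activated array 1 (0.132), 2 (0.0607) or 3 (0.0916), or after scaling to the hybridisation controls (0.475). Nor was it called with a block for replicate number (0.0563) or with eBayes without a trend (0.0913). This probe set bears the suffix for probes that may cross-hybridise. Of the further Hadh probe sets one fell by 1.24 ± 0.32 (adjusted p = 0.0146 over all probe sets), and the other differed by -0.72 ± 0.31 (adjusted p = 0.0964).

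The subunits of the mitochondrial trifunctional protein, which carries out the last steps on long chains, had differences of opposite sign that did not pass the test. Hadha, its alpha subunit, read 11.26, 11.82 and 11.86 in activated cells, against 11.14, 11.08 and 11.17 in quiescent cells, without overlap (0.52 ± 0.27, adjusted p = 0.152). Hadhb, its beta subunit, read 10.53, 12.13 and 11.56 in activated cells, against 12.38, 12.14 and 12.31 in quiescent cells (-0.87 ± 0.37, adjusted p = 0.091). Activated array 2 was level with the lowest quiescent array, and without it Hadhb was called lower (-1.23, adjusted p = 0.0361), as it was with its probe sets averaged (-0.78, adjusted p = 0.0443). Hadha was called higher when the hybridisation controls set the scale (1.16, adjusted p = 0.0388). Echs1, the short-chain enoyl-CoA hydratase, read 10.62, 10.38 and 10.32 in activated cells, against 8.97, 10.01 and 10.06 in quiescent cells. These groups did not overlap either, but the difference rested largely on quiescent array 1 and was not called (0.76 ± 0.36, adjusted p = 0.127).

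Auxiliary enzymes, which prepare unsaturated fatty acids for the spiral, gave 0 calls of 4. Eci1, an enoyl-CoA isomerase, read 11.05, 11.07 and 10.79 in activated cells, against 12.12, 11.98 and 11.10 in quiescent cells. Quiescent array 3 was close to the activated arrays, and without it Eci1 was called lower (-1.08, adjusted p = 0.00556, against -0.76 ± 0.31 and 0.0837 with all arrays). Eci2 differed by -0.52 ± 0.33 and the peroxisomal reductase Decr2 by -0.16 ± 0.55, with overlapping groups. Decr1, the mitochondrial dienoyl-CoA reductase, gave 2 different readings. Its brightest probe set read 10.16, 10.82 and 10.13 in activated cells, against 11.07, 10.73 and 10.83 in quiescent cells (-0.51 ± 0.30, adjusted p = 0.211). Its other probe set read 7.11, 7.05 and 7.23 in activated cells, against 9.44, 9.84 and 9.16 in quiescent cells, which overlapped nowhere and differed by -2.35 ± 0.41 (adjusted p = 0.00177 over all probe sets). Their mean was called lower (-1.43, adjusted p = 0.00225).

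Electron transfer genes were not called either. Etfa and Etfb, the subunits of the electron transfer flavoprotein, differed by -0.37 ± 0.30 and -0.35 ± 0.29 with overlapping groups. Etfdh, which passes the electrons on to ubiquinone, read 10.23, 9.98 and 10.22 in activated cells, against 10.84, 10.70 and 10.59 in quiescent cells. Its groups did not overlap, and the small difference of -0.57 ± 0.27 did not pass (adjusted p = 0.132).

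Of the peroxisomal genes, Acaa1a fell. This peroxisomal thiolase read 8.83, 10.28 and 10.18 in activated cells, against 11.02, 11.22 and 11.19 in quiescent cells. Activated array 1 was well below the other activated arrays, and the difference of -1.38 ± 0.39 (adjusted p = 0.0201) lost its call without that array (adjusted p = 0.0597), without quiescent array 2 (0.0618) and after scaling to the hybridisation controls (0.277). Both Acaa1a probe sets may also detect its close paralogue Acaa1b, so the gene is uncertain, and the second fell by 1.55 ± 0.45 (adjusted p = 0.0247 over all probe sets). Acox3, an oxidase of branched chains, differed by -0.83 ± 0.61 (adjusted p = 0.316). Ehhadh, the peroxisomal bifunctional enzyme, read 4.36, 5.07 and 5.20 in activated cells, against 5.19, 6.93 and 7.45 in quiescent cells. These signals lie near the array background, and its adjusted p was 0.167 when dim genes were kept.

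No ketone gene was called on its brightest probe set. Oxct1, the transferase that commits ketone bodies to oxidation, read 12.63, 12.89 and 12.65 in activated cells, against 12.91, 12.68 and 12.48 in quiescent cells. Its difference was 0.03 ± 0.23 (adjusted p = 0.919), and none of its 3 further probe sets was called (0.25 to 0.84). Acat1, the mitochondrial acetoacetyl-CoA thiolase, read 12.53, 13.20 and 12.97 in activated cells, against 12.85, 12.56 and 12.20 in quiescent cells, with overlap (0.36 ± 0.27, adjusted p = 0.321). Its second probe set read 11.85, 12.64 and 12.43 in activated cells, against 11.50, 11.37 and 11.34 in quiescent cells. There the groups were separate and Acat1 rose by 0.90 ± 0.27 (adjusted p = 0.0271 over all probe sets). The third differed by 0.60 ± 0.27 (adjusted p = 0.112). Acat1 was also called higher after scaling to the controls (1.01, adjusted p = 0.0312). Bdh1, the hydroxybutyrate dehydrogenase, read 8.61, 9.33 and 9.32 in activated cells, against 9.15, 9.86 and 11.08 in quiescent cells. It was not called (-0.94 ± 0.49, adjusted p = 0.155) except without quiescent array 1 (-1.38, adjusted p = 0.0492).

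Both regulators fell. Ppara, the fatty acid-sensing nuclear receptor PPAR alpha, read 7.27, 2.26 and 6.61 on activated arrays, against 9.72, 9.30 and 12.75 on quiescent arrays. Activated array 2 was below its background of 4.52 and quiescent array 3 stood well above the others, so the size is imprecise, at least 21.9-fold lower (-5.21 ± 1.25, adjusted p = 0.00902). Single arrays moved this bound: it was at least 10.4-fold without quiescent array 3 and at least 34.3-fold without quiescent array 2, and the fold was 12.5 without activated array 2, where no array was at background. The gene was called in each of these fits, and as the mean of its probe sets it differed by -3.51 (adjusted p = 0.0118). Of its further probe sets one read 5.32, 2.29 and 5.61 in activated cells, against 6.89, 8.42 and 8.89 in quiescent cells, and fell by at least 7.54-fold, activated array 2 again being below background (adjusted p = 0.015 over all probe sets). Without quiescent array 1 that bound was at least 11.3-fold. The other differed by -1.65 ± 0.65, without overlap but not called (adjusted p = 0.0744). Ppargc1a, which encodes PGC-1alpha, read 8.64, 8.89 and 9.47 in activated cells, against 11.27, 10.80 and 10.77 in quiescent cells. It was 3.86-fold lower (-1.95 ± 0.34, adjusted p = 0.00157), and each of its 4 further probe sets was also called, at -1.78 to -2.48.

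The acyl-CoA thioesterases are close paralogues whose probes may not separate them fully. Acot2, the mitochondrial enzyme, read 11.02, 10.55 and 10.84 in activated cells, against 12.50, 12.28 and 11.83 in quiescent cells (-1.39 ± 0.28, adjusted p = 0.00344). Its dimmer probe set read 7.55, 7.11 and 7.75 in activated cells, against 6.13, 6.60 and 8.15 in quiescent cells, and did not show this difference (0.51 ± 0.63, adjusted p = 0.564). The mean of both was not called (-0.44, adjusted p = 0.272), nor was Acot2 when the hybridisation controls set the scale (adjusted p = 0.121). Acot1, the cytosolic enzyme, read 11.11, 11.21 and 11.39 in activated cells, against 11.04, 11.33 and 11.68 in quiescent cells (-0.12 ± 0.27, adjusted p = 0.759).

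Probe sets of the same gene gave a measure of how far the single readings hold. The 36 genes had 69 probe sets, of which 65 were bright enough to test. In a fit over all 22607 such probe sets of the arrays, 28 of the 65 were called lower, where 16.3% of all were, and 2 higher, where 15.6% of all were. Of the 17 genes with more than 1 tested probe set, Cpt1a, Decr1 and Acat1 had a brightest probe set that was not called and a further one that was. Hadh, Ppara and Acot2 had a brightest probe set that was called and a further one that was not. In 6 genes (Slc27a1, Acsl3, Acsl6, Acaa2, Acaa1a and Ppargc1a) all tested probe sets were called, and in 5 (Acsl4, Cpt2, Hadhb, Oxct1 and Bdh1) none was. Probe sets of a gene share the RNA of the same arrays and are not replicates.

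**Figure D3:**
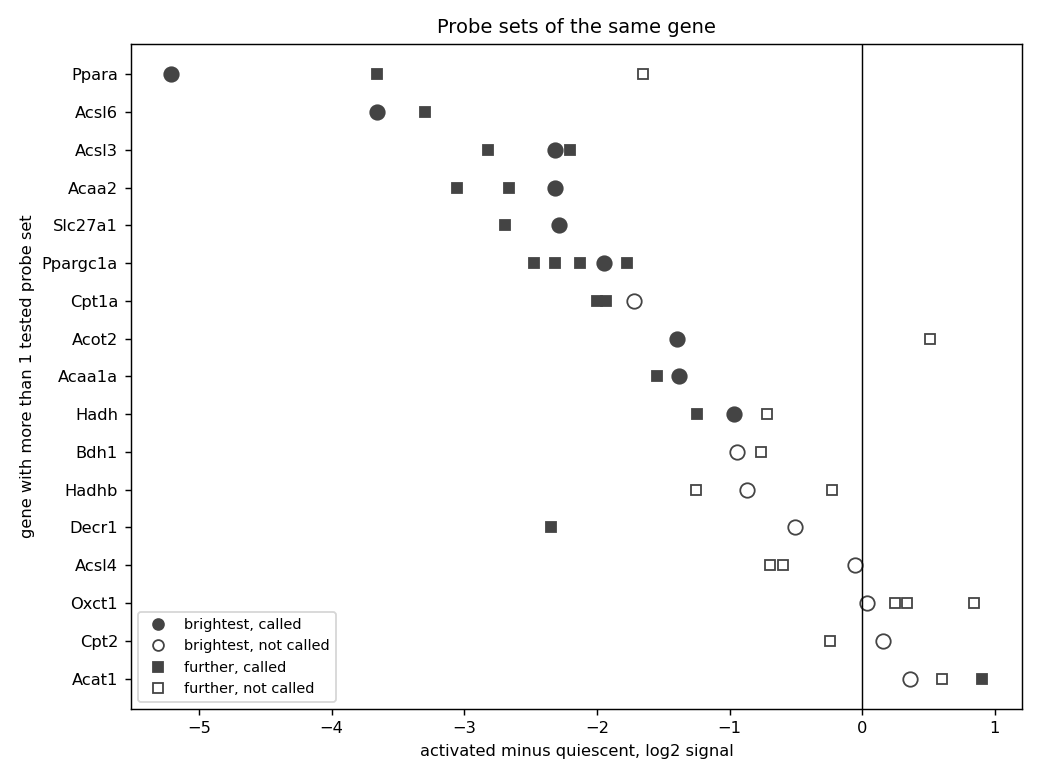
Difference of each tested probe set for the 17 genes with more than 1; the horizontal axis is activated minus quiescent in log2 signal, circles are the brightest and squares further probe sets, and filled symbols have an adjusted p under 0.05 over 22607 probe sets. All 5 Ppargc1a probe sets are filled and lie between -2.48 and -1.78, whereas the Decr1 probe sets lie at -0.51 and -2.35 and those of Acot2 on either side of 0.

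Further genes of the pathway, listed beside the set, were counted in the same fit. Of 58 listed genes 52 had a probe set and 45 were tested, of which 12 fell, where 17.6% of all tested genes were lower, and 0 rose (limma, where 17.3% of all tested genes were higher). At an unadjusted p under 0.05, 14 were lower and 1, Acot7, was higher. Their median difference was -0.66. After scaling to the controls 6 were lower and 2, Acot7 and Fabp7, higher, with a median of -0.02. Without quiescent array 2 the fit called 7 lower, and in the fit on means of probe sets 6. The monoacylglycerol lipase gene Mgll fell most, by 5.41 ± 0.42, and Abhd5, an activator of triglyceride lipolysis, fell by 2.14 ± 0.41, both among 4 lipolysis genes. Mgll was not among the genes called in the fit without probe sets of suffix _x_at, _s_at or _a_at. Slc25a20, which carries acylcarnitines through the inner mitochondrial membrane, fell by 1.69 ± 0.44. Crot, a peroxisomal carnitine transferase, fell by 2.10 ± 0.32. Abcd3, a peroxisomal fatty acid importer, had a difference of -1.63 ± 0.31, and Hsd17b4, a peroxisomal multifunctional enzyme, one of -1.29 ± 0.36. The synthetase gene Acsbg1, known from glia, fell by 2.08 ± 0.35 and the dehydrogenase gene Acad11 by 1.27 ± 0.40. Among regulators, Prkaa2, a catalytic subunit of AMP-activated kinase, fell by 3.08 ± 0.51 and Pdk4, which restrains glucose oxidation, by 1.22 ± 0.40. The monocarboxylate and ketone carrier gene Slc16a1 fell by 1.17 ± 0.29, and the propionate pathway gene Mmut had a difference of -1.52 ± 0.44. The adjusted p of these 12 genes lay between 3.41e-05 and 0.0374. In the fit on means of probe sets, which tested 41 of the listed genes, Acsbg1, Hsd17b4, Mgll, Pdk4 and Slc25a20 kept the call. Abcd3, Abhd5, Acad11, Crot, Mmut, Prkaa2 and Slc16a1 were not called in that fit, and Pex7 was called lower there.

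The calls of 7 genes held under all 18 alternative settings tried: Slc27a1, Acsl3, Acsl6, Acadvl, Acaa2, Ppara and Ppargc1a. The other 6 called genes, Acadl, Acadm, Hadh, Acaa1a, Acot2 and Acads, each lost the call under at least 1 setting. No called gene changed direction in any of them.

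**Figure D4:**
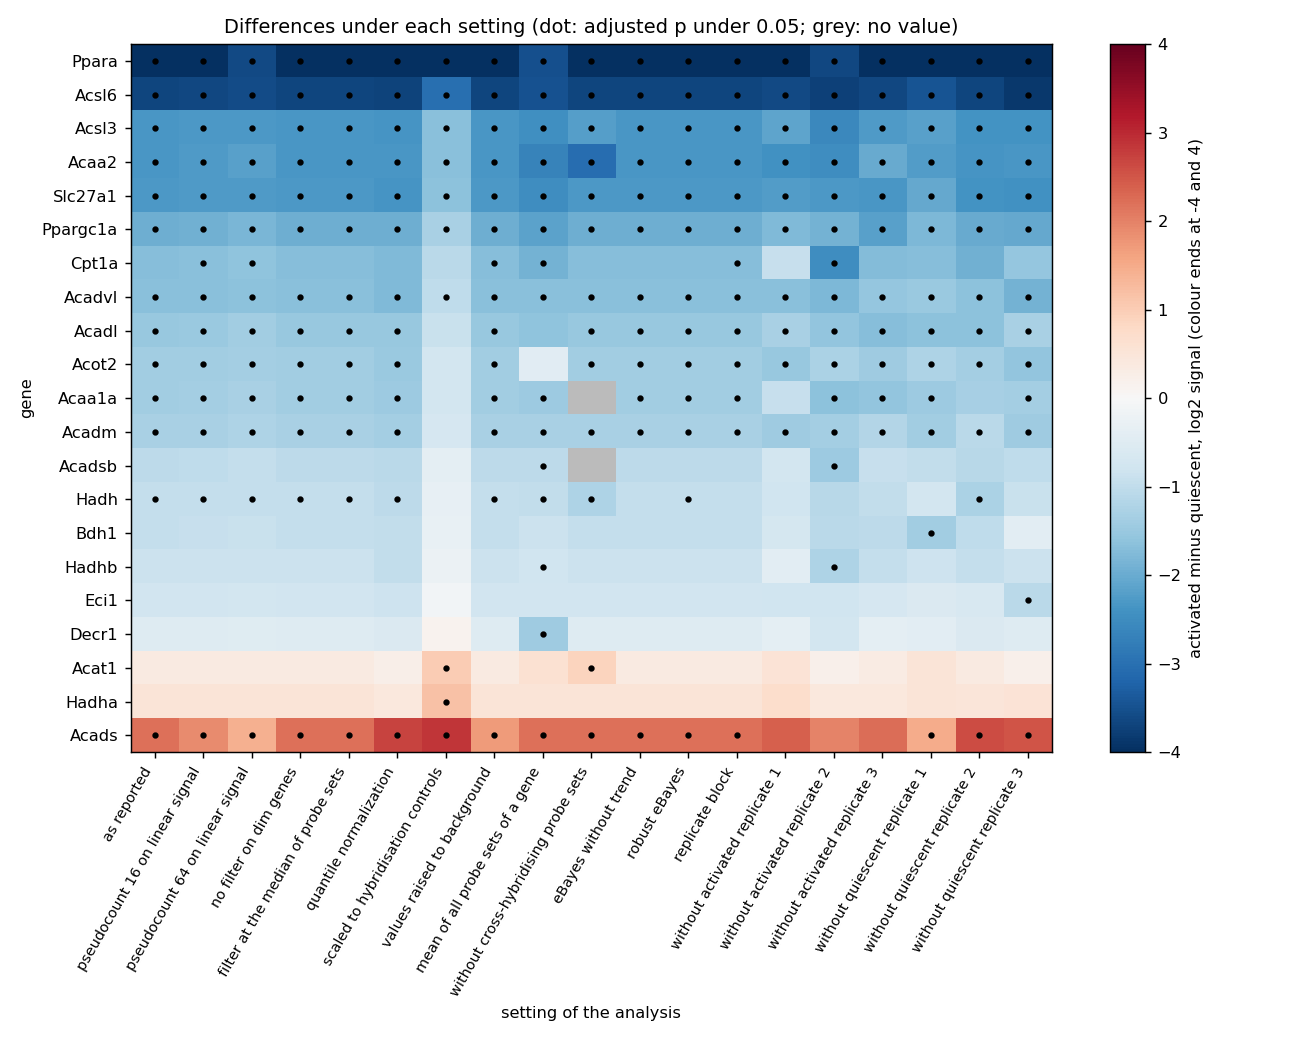
Differences of the 21 genes called under at least 1 setting, by setting; colour is activated minus quiescent in log2 signal, dots mark an adjusted p under 0.05 and grey cells have no value. Acsl6, Acsl3, Acaa2, Slc27a1, Ppargc1a, Acadvl and Ppara carry a dot in every column, and the column for scaling to the hybridisation controls has 7 dots for lower and 3 for higher genes. The column named for cross-hybridising probe sets left out all those of suffix _x_at, _s_at or _a_at.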

How the data were processed

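Total RNA of the sorted cells was amplified and biotin-labelled, per the labels' protocols, and hybridised to 6 arrays. The deposited values are log2 signals, and MAS5 is the tool named, per the submitters' processing notes. No MAS5 version or detection call was used here. The linear 2% trimmed mean was 500.0 on every array, which removes differences in RNA per cell, and MAS5 signals near background are noisy. Of 45101 probe sets, 34945 were annotated to 1 gene, and symbols were updated by Entrez identifier. Genes whose mean over 6 arrays reached the 40th percentile, a log2 signal of 6.02, were tested with lmFit and eBayes with a trend (limma 3.58.1, R 4.3.3) and Benjamini-Hochberg adjustment over 11575 genes. The calculation was tested on simulated data. Background was the 95th percentile of 27 bacterial control probe sets. Where the lower group touched it, a fold is a lower bound, with dim arrays raised to their background. Every member was named, with values on each array for those called, not overlapping or changing call. Members, roles, further genes, markers and alternatives were chosen with earlier results of these data known. The fit of single probe sets was added after seeing the data, and promoters came from RefSeq. Figures were drawn with matplotlib 3.10.9.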

Additional observations from a re-analysis of the deposited data

How the results depend on the processing

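The 18 alternatives covered pseudocounts, dim filters, scalings, probe set rules, variance models, a block for replicate number and each array left out. The 12 lower and 1 higher genes of the set became 7 and 3 after scaling to the hybridisation controls, where its median difference was -0.12 against 0.66 over all genes, and where 943 genes were lower and 3059 higher over all. The higher genes of the set numbered 2 in the fit without probe sets of suffix _x_at, _s_at or _a_at. There another Acat1 probe set stood for that gene (0.90, adjusted p = 0.0257). With 1 array left out, called genes of the set numbered 10 to 14 (lower 10 to 14, higher 0 to 1, with 0 whichever activated array was left out), the median -0.81 to -0.50 (-0.50 without quiescent array 1), and calls over all genes 2855 to 4616 (lower 1540 to 2176, higher 1315 to 2440, the lowest without activated array 2). In the other alternatives these counts stayed within 1.5 times those reported. Over the tested genes and alternatives, 591 of the results kept their side of the threshold, 19 calls were lost and 16 gained, and 0 called genes changed direction. Single probe sets gave 4 gained and 2 lost calls, and the second Acot2 probe set had the opposite sign (0.51, not called). Equal replicate numbers did not clearly mark pairs: deviations from the group means correlated at 0.06, -0.02 and 0.03. Activated arrays 1 and 3 correlated best with the quiescent array of their own number, activated array 2 with quiescent array 3. Correlations this small over 3 arrays per group cannot settle whether arrays were paired. With the number as a block, 3934 genes were called, and in the set 13, with Cpt1a gained (adjusted p = 0.0405) and Hadh lost (adjusted p = 0.0563). The causes were not tested. Signals near background, as for Acads, Ehhadh and Ppara, limit what the arrays can resolve.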
